A study of Cucumis sativus with 6 samples.

Results

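The step from day 6 to day 9 in the peel of young cucumber fruit was described by setting 1 peel library of day 9 against 1 peel library of day 6. Of the 21317 genes in the deposited table, 17439 reached 1 FPKM (fragments mapped per kilobase of gene, normalised to library size) in either library and were kept. Each kept gene was described by its log2 difference, log2((FPKM at day 9 + 1)/(FPKM at day 6 + 1)), a scale that understates the change of genes with low values. All fruits were of the inbred line YB and came from self-pollination, and they were cut into peel and flesh at 3, 6 and 9 days. Each library held RNA of 3 mixed fruits, so a value stands for a mixture and not for a fruit. There was 1 library for each of the 6 combinations of tissue and day, and differences within peel therefore have no replicate check and no p-value. The study was titled for astringency of the fruit, the dry mouthfeel that phenolic compounds give.

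A cucumber grows in its first days after pollination by cell division and then mainly by enlargement of the cells. The peel holds the epidermis, which secretes the cuticle. Its cells make very-long-chain fatty acids, turn them into waxes, and export them together with cutin monomers through ABC transporters, while lipid transfer proteins and GDSL esterases act in the outer wall. Phenylalanine ammonia-lyase, cinnamate 4-hydroxylase and 4-coumarate:CoA ligase open the phenylpropanoid pathway, from which lignin, flavonoids and other phenolics are made. Class III peroxidases oxidise phenolics and cross-link walls.

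The peel library of day 9 was the shallowest, with 14899922 reads assigned to genes against 19067317 in the peel library of day 6. The deepest of the 6 libraries had 23740219. The day 9 peel library also had the largest sum of FPKM, 739338 against 625440 at day 6, and its 10 most abundant genes held 7.43% of that sum against 3.84% at day 6. In bulk tissue, fewer cells of a type and less RNA per cell cannot be told apart. Intervals given for a fold of reads are 95% exact intervals and cover counting error only, not the differences between fruits.

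In the peel at day 9, 683 of the 17439 genes lay at least 4-fold above day 6 (3.92%), and 380 were at least 4-fold lower (2.18%), together 1063 genes (6.1%). With upper-quartile rescaling the numbers were 584 and 445, and the median of all genes moved from 0.02 to -0.13. With a pseudocount of 5 they were 322 and 96, so that 77.0% of the genes past the bound were higher, against 64.3% as reported. Counts of list members given below stand beside these numbers of all genes at the same setting. At 16-fold, 58 genes were higher and 14 lower. The bound cut through a continuum: 31 genes lay within 0.05 log2 units above it and 37 within 0.05 below it on the higher side. Callose synthase 1 (Csa7G429550) lay just inside, with 16.6 and 69.5 FPKM at days 6 and 9, and an ethylene-responsive factor 1A (Csa2G006270) just outside, at 2.09 and 11.3.

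The levels behind these sets were as follows. The higher genes had a median of 3.92 FPKM in peel at day 3, 3.82 at day 6 and 34.9 at day 9, and 177 of them were under 1 FPKM at day 6. The lower genes had medians of 21.9, 16.2 and 1.51 FPKM at the same days. Few reads lay behind part of them, with 72 of the 683 higher genes and 32 of the 380 lower genes under 30 reads in the library with more. At least 100 FPKM were reached at day 9 by 178 higher genes. The table gave no product name for 137 of the higher and 77 of the lower genes.

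**Figure D1:**
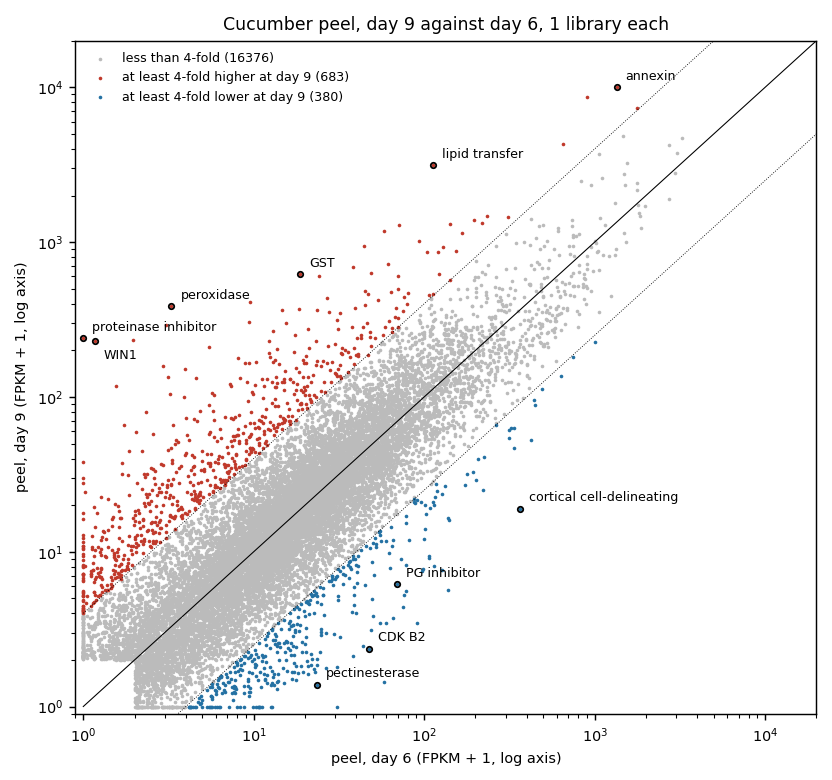
Level of each of the 17439 genes in peel at day 6 (horizontal axis) and at day 9 (vertical axis), as FPKM + 1 on log axes, 1 library each; the solid line marks equal levels and the dotted lines 4-fold. The 683 genes in red lie above the upper dotted line and reach down to 0 FPKM at day 6, and the 380 genes in blue lie under the lower one.

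The largest difference belonged to a proteinase inhibitor (Csa5G285030, chromosome 5, 11811687 to 11812272). Proteinase inhibitors of plants block digestive proteases of feeding animals and are commonly induced by wounding. It was listed at 0.799 FPKM in peel at day 3, 0 at day 6 and 239 at day 9, whereas flesh had 0.661, 0 and 0.593 FPKM. The day 9 value rested on 326 reads and the day 6 value on 0 reads. Set against a floor of 3 reads in the day 6 library, the day 9 level was 158-fold higher. The counting interval of the ratio began at 128.

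A gene annotated as wound-induced protein WIN1 (Csa2G010390) had 0.235, 0.170 and 229 FPKM in peel at the 3 days and stayed at or under 0.106 FPKM in flesh. Its reads numbered 2 at day 6 and 1651 at day 9, a ratio of 1198 after scaling with an interval from 331 to 9905. WIN1 of potato is a chitin-binding protein of the wound response. The pathogen-induced protein CuPi1 (Csa7G037610) had 0.887, 0.970 and 231 FPKM in peel, whereas flesh had 6.68 and 11.4 at days 6 and 9. Its scaled reads were 227 times as high at day 9, with an interval from 119 to 497. All 3 genes were near or under 1 FPKM in peel until day 6 and above 200 at day 9.

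A nodulin family protein (Csa5G622530) had 1.81, 4.49 and 208 FPKM in peel, while flesh stayed under 1 FPKM at all days. A KDEL motif-containing protein (Csa6G003390) had 3.26, 1.35 and 79.0 FPKM in peel. A gene named only by its Arabidopsis match, At2g18690 (Csa6G398210), had 0.402, 1.93 and 158 FPKM. These 3 genes were among the 12 largest differences with a product name, at 5.09 to 5.76 log2 units.

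Genes without a product name reached the same sizes. Csa4G000860 had 13.5, 2.04 and 292 FPKM in peel and was under 1 FPKM in flesh at each day. Csa4G000820 had 109 FPKM in peel at day 3, 2.96 at day 6 and 151 at day 9, so that its day 6 value was the low one. Csa4G022280 was listed at 0 FPKM from 0 reads at day 6 and had 36.8 FPKM from 36 reads at day 9. Set against the floor of 3 reads, this is 17.4-fold higher, and the counting interval of its ratio began at 13.5.

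Chitinases and endochitinases, which cut the chitin of fungal walls, were mostly higher at day 9. Of 15 chitinase genes kept, 14 were higher at day 9 than at day 6, 8 of them at least 4-fold (5 with a pseudocount of 5), and their median log2 difference was 2.40 in peel and 0.20 in flesh. This family was picked out after its values were seen. A chitinase (Csa6G507520) had 0.540, 0.557 and 116 FPKM in peel, while flesh stayed under 1 FPKM. An acidic endochitinase (Csa5G139760) had 0.272, 0.742 and 65.0 FPKM in peel, and Chitinase 7 (Csa1G534750) had 19.9, 45.2 and 297. Levels of Chitinase 7 in flesh were 1.35, 0.180 and 0.740 FPKM.

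The whole list of pathogenesis-related and latex-like proteins was mixed, with 15 of 94 kept members at least 4-fold higher, 6 lower and a median of -0.29 in peel. Of the glucan endo-1,3-beta-glucosidases and beta-1,3-glucanases in it, 37 of 48 were lower at day 9, 5 of them at least 4-fold, and 3 were at least 4-fold higher. Such enzymes cut callose and fungal glucans. Glucan endo-1,3-beta-glucosidase 4 (Csa4G622750) had 61.8, 58.8 and 2.46 FPKM in peel, whereas flesh had 30.4, 16.5 and 2.88. The opposite case, Csa3G073920, had 46.1, 66.5 and 328 FPKM in peel. A major latex-like protein (Csa5G602750) was among the most abundant genes of the day 9 peel, with 173, 651 and 4297 FPKM, against 9.70 and 5.47 in flesh at days 6 and 9. Its family, counted after the values were seen, was split in peel. Of 7 major latex genes kept, 4 were higher at day 9, 2 of them at least 4-fold, and 3 were lower. The family median was 0.199 in peel and 2.096 in flesh, so this gene does not stand for its family.

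Of 62 peroxidase genes matched, 33 passed the filter on low values. Of these, 11 were at least 4-fold higher at day 9 (33.3%) and 1 was lower, and the median log2 difference was 1.48 in peel and -0.04 in flesh. The peel median was 0.68 with a pseudocount of 5. Peroxidase Csa4G285730 had 0.302, 2.29 and 387 FPKM in peel on the successive days, against 6.00, 0.739 and 1.54 in flesh. Its scaled reads were 166 times as high at day 9 as at day 6, with an interval from 125 to 225. Peroxidase Csa4G285780 had 173, 91.8 and 1016 FPKM in peel, and Csa4G285740 had 4.85, 69.4 and 500. Flesh differed between these members, since Csa4G285780 was at 2.38 and 8.46 FPKM there and Csa4G285740 at 98.8 and 200.

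These peroxidases lay side by side on chromosome 4. Between 10986755 and 11018798 the table placed 6 peroxidase genes, of which 5 were at least 4-fold higher. Of these, Csa4G285750 lay at 2.51 log2 units and at 1.04 with a pseudocount of 5. The exception, Csa4G285770, had 496, 142 and 232 FPKM in peel and a log2 difference of 0.71. The members thus differed in level by day 3, when Csa4G285770 was the most abundant of the 6 and Csa4G285750 was at 0.113 FPKM. Reads of near-identical copies can be split or shared by the counting, so single values within such a cluster are uncertain.

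Among genes of the entry to the phenylpropanoid pathway, 31 of 35 kept members were higher in peel at day 9, with a median of 1.03 against 0.47 in flesh. The 11 members past 4-fold (31.4%, none lower) were 3 phenylalanine ammonia-lyases of 16, the 6 cinnamate 4-hydroxylases kept, and 2 ligases of 13. Of the hydroxylases 5 were past 4-fold after upper-quartile rescaling and 4 with a pseudocount of 5. Phenylalanine ammonia-lyase Csa6G445740 had 7.40, 13.1 and 161 FPKM in peel, whereas flesh had 8.20, 3.93 and 7.50. Cinnamate 4-hydroxylase Csa6G133710 had 17.4, 19.3 and 164 FPKM in peel, whereas flesh had 43.4, 33.2 and 14.0, so that peel was the higher tissue at day 9 and flesh at days 3 and 6. The 6 hydroxylases lay between 2.02 and 3.02 log2 units in peel, and their median in flesh was 0.01. A pair of neighbouring ligases, Csa7G430240 and Csa7G430250, chosen after their values were seen, had 12.4 and 8.62 FPKM at day 6, then 134 and 78.7.

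Upstream, the shikimate pathway supplies phenylalanine. The list matched on its names had 2 of 30 members at least 4-fold higher (6.67%, beside 3.92% of all genes) and a median of 0.32. The gene for 3-phosphoshikimate 1-carboxyvinyltransferase (Csa3G126230), which makes the precursor of chorismate, had 49.4, 38.7 and 186 FPKM in peel, whereas flesh had 43.3 and 31.0 at days 6 and 9. The other member past the bound, a hydroxycinnamoyl transferase (Csa2G147920), matched by its name and joins shikimate or quinate to phenolic acids. It is not part of the supply of phenylalanine, and it had 8.57, 10.3 and 45.8 FPKM. Its log2 difference of 2.05 was 1.90 after upper-quartile rescaling and 1.73 with a pseudocount of 5, under the bound.

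The downstream branches came next. Of 18 flavonoid enzymes kept, 0 were at least 4-fold higher (3.92% of all genes) and 3 were lower (16.7%, beside 2.18% of all genes). These were a chalcone-flavanone isomerase family protein (Csa3G002810) with 95.7, 37.3 and 1.14 FPKM, its neighbour flavanone 3-hydroxylase (Csa3G002800) with 100, 10.7 and 0.516, and a flavonoid 3',5'-hydroxylase (Csa1G013190) with 19.5, 4.96 and 0.286. All 3 had been lower at day 6 than at day 3 already, and the last had 7 reads at day 9. With a pseudocount of 5 the log2 differences of the hydroxylases were under the bound, at -1.51 for Csa3G002800 and -0.91 for Csa1G013190. Of 40 lignin and monolignol genes, 1 was at least 4-fold higher (2.5%) and 3 laccases were lower (7.5%), beside the same shares of all genes. The higher gene was a cinnamyl alcohol dehydrogenase (Csa7G071700) with 1.12, 1.63 and 26.6 FPKM. Laccases polymerise monolignols. The level of Laccase-22 (Csa5G160220) was 153, 140 and 15.0 FPKM in peel, whereas flesh had 188, 205 and 52.2.

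**Figure D2:**
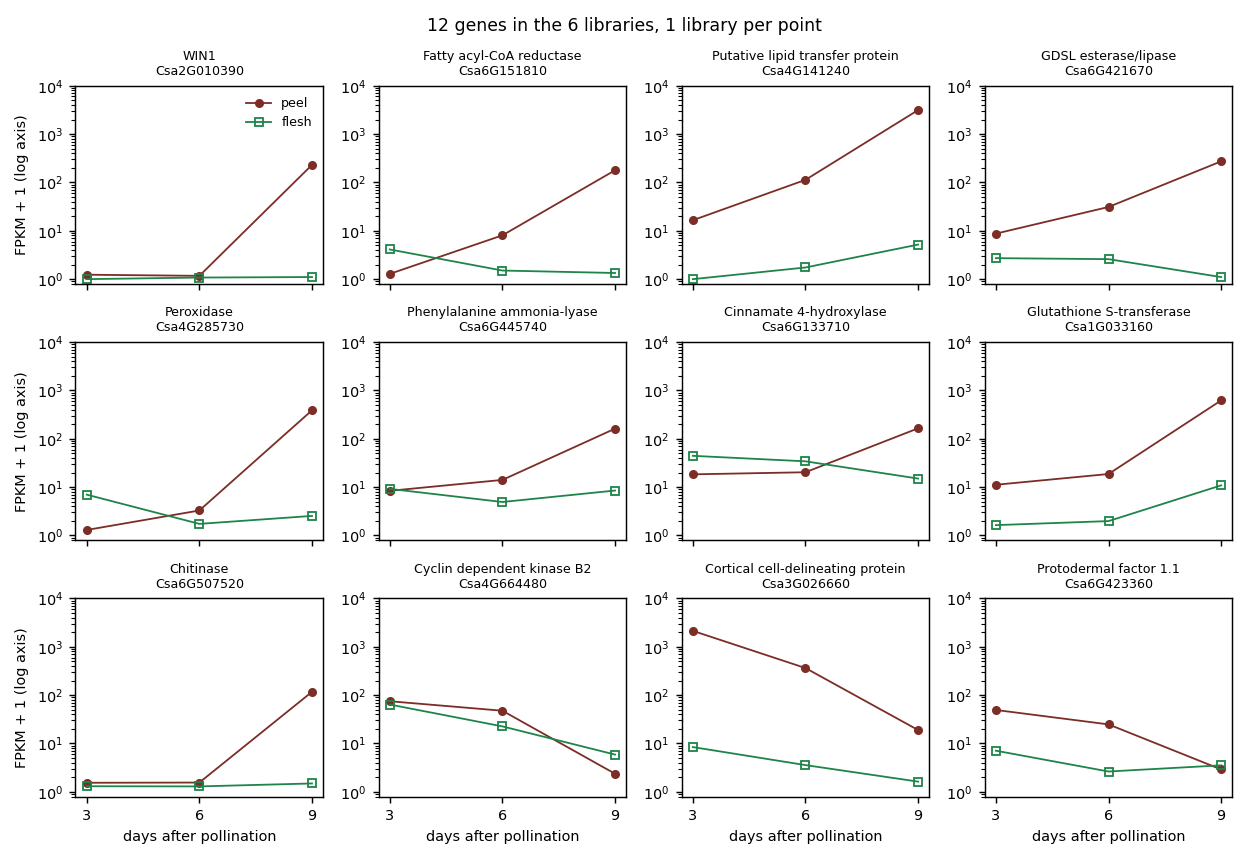
FPKM + 1 on a log axis for 12 genes in each of the 6 libraries, by days after pollination, with peel as filled circles and flesh as open squares; each point is 1 library. WIN1, the peroxidase and the chitinase are near the bottom of the axis in peel until day 6, whereas cyclin dependent kinase B2 and the cortical cell-delineating protein are lower at each later day.

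Cuticle and wax genes were mostly higher, with 26 of 32 kept members above their day 6 level. Their median was 0.52 in peel and -0.29 in flesh. At least 4-fold higher were 5 (15.6%) and at least 4-fold lower 1 (3.1%), beside 3.92% and 2.18% of all genes. A fatty acyl-CoA reductase (Csa6G151810), of the enzymes that make primary alcohols of waxes, had 0.285, 7.06 and 178 FPKM in peel, whereas flesh had 3.11, 0.506 and 0.341. Its neighbour Csa6G151790, chosen after its values were seen, had 0.193, 0.0296 and 23.5 FPKM, from 1 read at day 6 and 519 at day 9. The 3-ketoacyl-CoA synthases, which elongate fatty acids, included Csa6G302180 with 2.21, 1.87 and 35.6 FPKM and Csa5G609650 with 21.2, 17.9 and 89.6. Among the 11 synthases kept, 9 were higher at day 9.

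The remaining genes past the bound in this list, chosen after their values were seen, were CER1 (Csa3G127750) and the O-acyltransferase WSD1 (Csa7G051300). CER1 takes part in alkane synthesis and had 0.0394, 0.108 and 6.20 FPKM, from 4 and 196 reads at days 6 and 9. WSD1 of Arabidopsis makes wax esters, and Csa7G051300 went the other way, with 17.2, 15.6 and 1.56 FPKM. It was the 1 lower gene of 4 annotated WSD1 that were kept. The other 3 were higher at day 9, and the median of the 4 was 0.98. With a pseudocount of 5 the log2 differences were 1.13 for Csa3G127750 and -1.65 for Csa7G051300, both under the bound. The summed FPKM of the 42 matched genes in peel was 448, 638 and 1140 at days 3, 6 and 9, and in flesh 314, 258 and 188.

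Lipid transfer proteins reached the highest levels of the surface genes. The 33 matched genes summed to 772, 2155 and 10539 FPKM in peel at days 3, 6 and 9, and to 722 and 487 in flesh at days 6 and 9. Of the 17 kept, 5 were at least 4-fold higher and 2 lower, so the sum was carried by a few members, and the list median of 0.25 turned to -0.02 with quantile rescaling. A putative lipid transfer protein (Csa4G141240) had 15.5, 112 and 3133 FPKM in peel, whereas flesh had at most 4.19. Csa4G146250 had 0.637, 8.48 and 407 FPKM in peel, and CsaUNG028560 had 40.5, 195 and 1384. The lower pair, chosen after their values were seen, were Csa1G602030 with 66.0, 54.8 and 10.8 FPKM and Csa7G061200 with 91.1, 107 and 18.0. The former lay at -1.92 log2 units with a pseudocount of 5.

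GDSL esterases and lipases, some of which polymerise cutin, had 5 of 40 kept members at least 4-fold higher (12.5%) and 1 lower (2.5%). The shares over all genes were 3.92% and 2.18%. With a pseudocount of 5 the list had 2 and 0. The list median of 0.05 lay near that of all genes and was negative with upper-quartile (-0.11) or quantile rescaling (-0.19). Csa6G421670 had 7.73, 30.1 and 272 FPKM in peel, whereas flesh had 1.72, 1.59 and 0.104. Csa3G434970 had 22.8, 15.3 and 129 FPKM in peel, whereas flesh had 7.37, 4.99 and 0.980. ABC transporters had 5 of 71 members at least 4-fold higher (7.04%, beside 3.92% of all genes, and 2 with a pseudocount of 5) and 0 lower. Csa3G446120, of the G family that holds cuticle exporters, had 164, 121 and 618 FPKM in peel, whereas flesh had 5.50 at day 9.

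The label of peel was compared with these markers. At day 9 the summed FPKM of cuticle and wax genes was 1140 in peel and 188 in flesh, that of lipid transfer proteins 10539 and 487, and that of GDSL genes 4028 and 364. The epidermis and trichome regulators differed from these lists, with sums of 251, 241 and 239 FPKM in peel at days 3, 6 and 9 and of 251, 315 and 407 in flesh. Of the 9 kept, 5 were higher at day 9 than at day 6 and 4 lower, with a median of 0.09. The 1 member past 4-fold, protodermal factor 1.1 (Csa6G423360), a mark of young epidermis, had 48.3, 23.8 and 1.91 FPKM in peel, whereas flesh had 6.09, 1.64 and 2.53, so at day 9 flesh was the higher tissue. Vascular and phloem markers summed to 9620 FPKM in peel at day 6 and 15252 at day 9, and in flesh to 6519 and 19464. In peel 1 of 40 members was at least 4-fold higher and 5 were lower, among them fasciclin-like arabinogalactan proteins such as Csa6G076800 with 91.8, 77.4 and 7.23 FPKM. The list was split, with 19 members higher at day 9, 21 lower and a median of -0.02. Of 15 phloem proteins, counted after the values were seen, 12 were higher, and of 10 sieve element occlusion genes 9 were lower. Seed and ovule markers summed to 2113 and 5595 FPKM, most of it a late embryogenesis abundant protein (Csa7G398090) at 1472 and 4875, which flesh held at 1114 and 3547. Of the 33 seed and ovule members kept, 15 were higher at day 9 and 18 lower, with a median of -0.23. At least 4-fold higher was 1 (3.03%, beside 3.92% of all genes). The part of these markers in the other results was not tested.

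Glutathione S-transferases, which join glutathione to toxic or reactive compounds and bind flavonoids, were higher as a group. Of 39 kept, 31 were higher at day 9, 13 at least 4-fold (33.3%) and 0 lower, with a median of 1.03 in peel and 0.16 in flesh. Csa1G033160 had 10.2, 17.7 and 620 FPKM in peel, whereas flesh had 0.639, 0.985 and 9.88. Csa4G064630 had 38.7, 63.2 and 474 FPKM in peel, and Csa1G701990 had 87.1, 67.3 and 373. The 45 matched genes summed to 659 FPKM in peel at day 6 and 2822 at day 9, and to 523 and 554 in flesh.

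Cytochrome P450 oxidases, which oxidise many plant metabolites, had 20 of 112 members at least 4-fold higher (17.9%) and 2 lower (1.79%). The shares over all genes were 3.92% and 2.18%. With a pseudocount of 5 the list had 12 and 0. The 20 included the 6 cinnamate 4-hydroxylases. Csa4G622230 had 1.48, 2.12 and 133 FPKM in peel, and Csa5G153010 had 0.748, 26.8 and 355. UDP-dependent glycosyltransferases, which add sugars to small molecules, had 11 of 103 higher (10.7%) and 2 lower (1.94%), beside the same shares of all genes. With a pseudocount of 5 they were 2 and 0, near the 322 and 96 of all 17439 genes. The list median of 0.13 lay close to that of all genes. Csa5G196570 had 10.5, 8.24 and 92.6 FPKM in peel. Of 5 triterpene genes kept, 0 passed the bound.

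**Figure D3:**
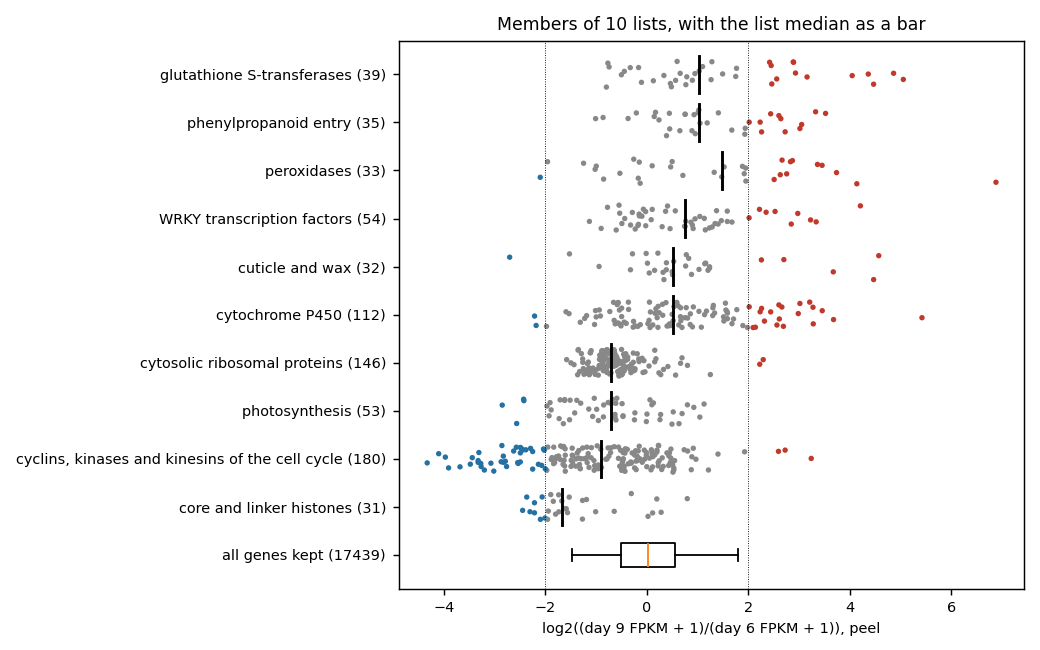
Log2 difference between day 9 and day 6 in peel for the kept members of 10 lists, with the list median as a bar, members past 4-fold in red or blue, and below them all 17439 genes as a box from the lower to the upper quartile with whiskers that leave out 5% of the genes at each end. Glutathione S-transferases and peroxidases extend far to the right, histones and cell cycle genes to the left, and the cytosolic ribosomal proteins form a narrow band around -0.70.

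Genes of cell division were lower at day 9. Of 180 cyclins, kinases, kinesins and other cell cycle genes kept, 138 were lower, 39 of them at least 4-fold (21.7%), and 3 were at least 4-fold higher, with a median of -0.90 in peel and -0.59 in flesh. The share of all genes at least 4-fold lower was 2.18%. With a pseudocount of 5 the lower genes were 9 in the list and 96 of all 17439 genes, against 380 as reported. Cyclin dependent kinase B2 (Csa4G664480), which drives entry into mitosis, had 73.8, 46.6 and 1.37 FPKM in peel, whereas flesh had 62.9, 21.6 and 4.90. A cyclin (Csa4G425740) had 53.1, 29.9 and 0.800 FPKM in peel, and a cell division cycle protein (Csa5G141120) had 56.8, 53.7 and 2.49. Levels at day 6 were close to those of day 3 for the last, and lower for the others.

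The families within this list were separated after the values were seen. Of 14 cyclins A and B, 13 were lower, with a median of -1.55, and of 54 kinesins, 46 were lower, 18 at least 4-fold (1 with a pseudocount of 5). The members that were at least 4-fold higher were a kinesin pair on chromosome 7, Csa7G006260 and Csa7G006270, with 4.54 and 9.63 FPKM at day 6, then 35.6 and 63.2, and a cyclin-dependent protein kinase-like gene (Csa6G127480) with 1.89 and 26.3. A gene annotated as Meiosis 5 (Csa6G178950) had 74.5, 126 and 6.67 FPKM in peel, whereas flesh had 33.1 and 0.399 at days 6 and 9.

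Histones package newly copied DNA. Of 31 core and linker histones kept, 26 were lower, 24 of them at least 2-fold and 8 at least 4-fold (25.8%), and the median was -1.68 in peel and -1.21 in flesh. The number past 4-fold was 4 with a pseudocount of 5 and 13 with quantile rescaling. Histone H2B (Csa1G132130) had 323, 440 and 94.1 FPKM in peel, and histone H2A (Csa2G225360) had 365, 313 and 59.9. Histone H4 (Csa6G191570), at 257, 264 and 65.0 FPKM, lay at -2.01, just past the bound, and at -1.98 after median-ratio rescaling. The 32 matched genes summed to 7862 FPKM in peel at day 3, 7367 at day 6 and 3313 at day 9.

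Cytosolic ribosomal proteins were lower by a smaller and more even amount. Of 146 kept, 131 were lower, 28 at least 2-fold, 0 at least 4-fold, with a median of -0.70 in peel and -0.53 in flesh. Their summed FPKM was 55142 in peel at day 6 and 34754 at day 9. A pair annotated as 60S ribosomal protein L34, Csa5G605070 and Csa3G826700, went the other way, with 3.80 and 8.88 FPKM at day 6, then 22.6 and 45.2, and neither passed 4-fold with a pseudocount of 5.

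Photosynthesis genes were lower by a similar amount. Of 53 kept, 39 were lower, 4 at least 4-fold (7 after upper-quartile rescaling), 0 at least 4-fold higher, with a median of -0.70 in peel and -0.39 in flesh. The 3 chlorophyll a-b binding proteins of the light-harvesting antenna past 4-fold included Csa6G522680 with 124, 112 and 20.0 FPKM and Csa3G099680 with 94.2, 49.8 and 6.05. Photosystem II 22 kDa protein (Csa7G267900), which dissipates excess light as heat, had 34.8, 63.9 and 9.96 FPKM in peel, whereas flesh had 26.6 and 22.5 at days 6 and 9. Of 14 chlorophyll biosynthesis enzymes, 13 were lower and 0 past 4-fold. Protochlorophyllide reductase (Csa4G638340) had 200, 81.6 and 20.1 FPKM in peel, a log2 difference of -1.97 that passed the bound after upper-quartile rescaling (-2.12). Of 18 carotenoid genes, 15 were lower and 0 past 4-fold.

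**Figure D4:**
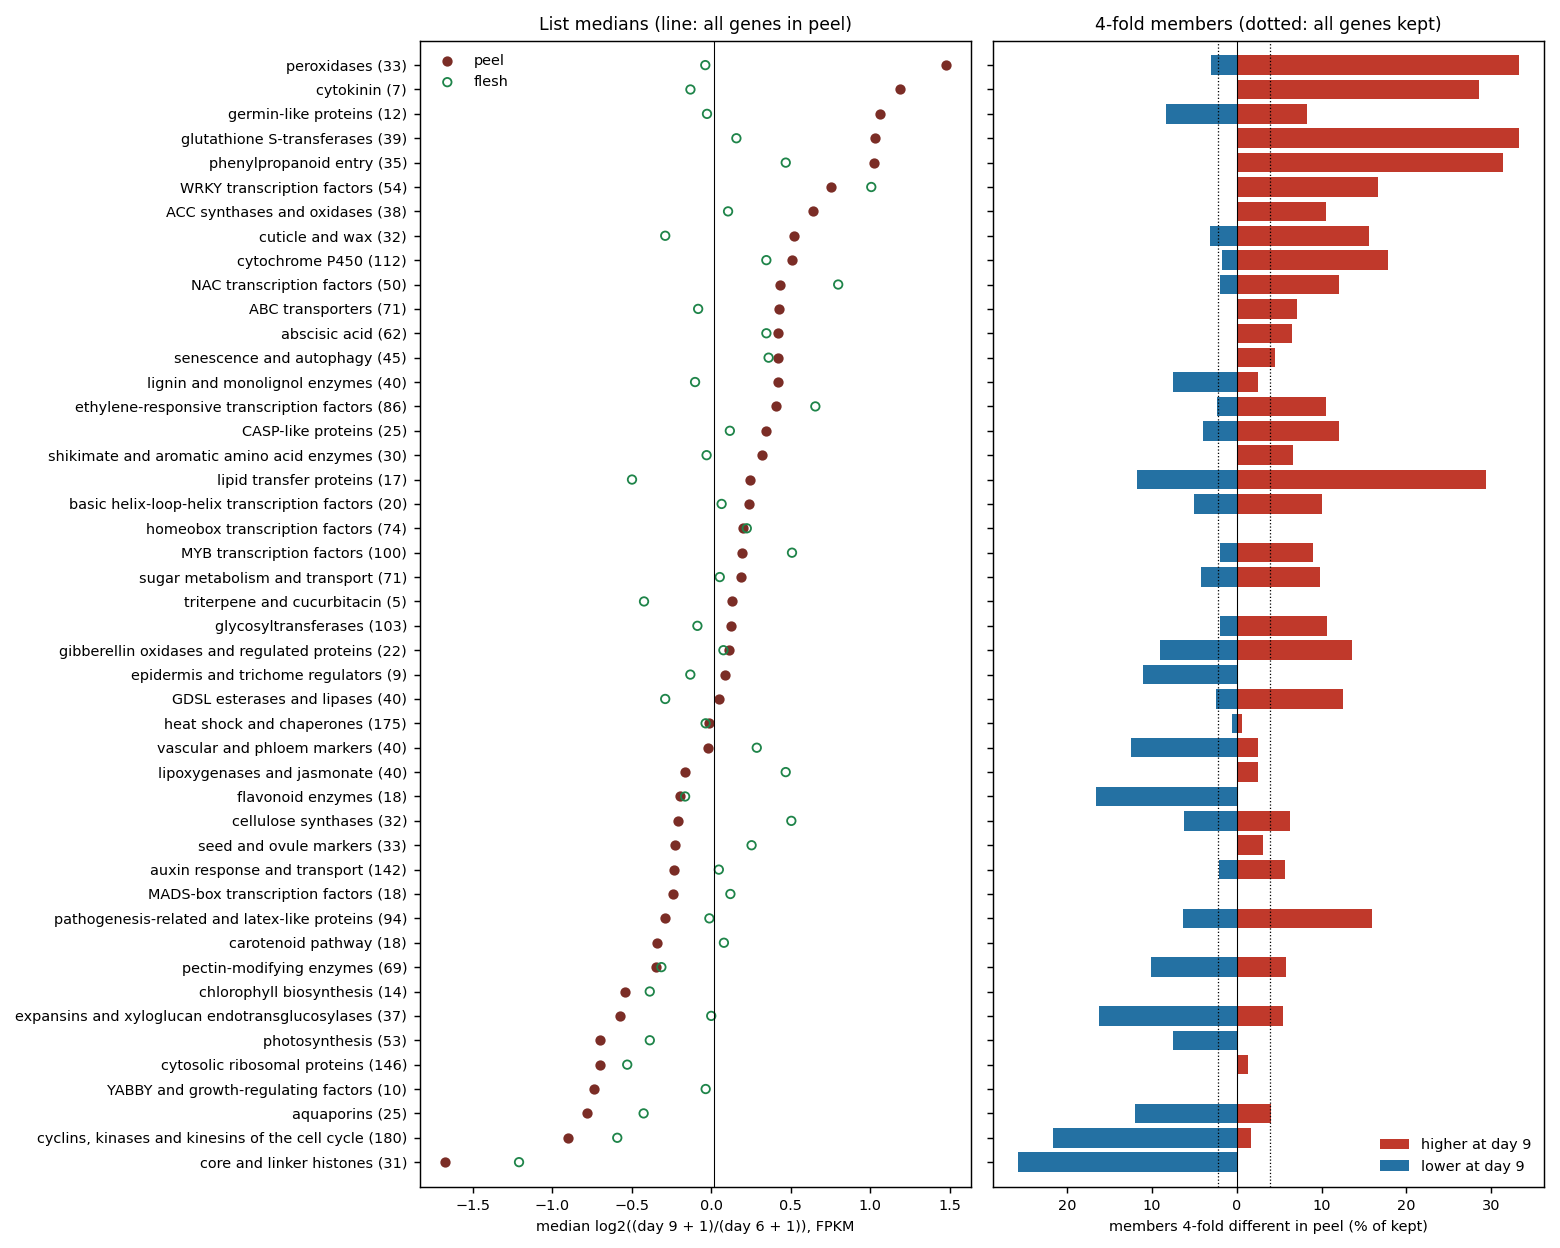
For each of 46 lists (number of kept members in parentheses), the left panel gives the median log2 difference between day 9 and day 6 in peel (filled) and flesh (open), and the right panel the percentage of peel members at least 4-fold higher (red, right of 0) or lower (blue, left of 0), with dotted lines at 3.92% and 2.18% for all genes kept. Peroxidases have the highest median in peel and histones the lowest in both tissues.

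Wall loosening genes included higher and lower members. Of 37 expansins and xyloglucan endotransglucosylases (XTH), 6 were at least 4-fold lower (3 with a pseudocount of 5) and 2 higher (1 after upper-quartile rescaling), with a median of -0.57 in peel and 0.00 in flesh. Expansin 10 (Csa4G296100), of the proteins that loosen walls during growth, had 110, 137 and 15.5 FPKM in peel, whereas flesh had 177, 241 and 166. XTH Csa7G044980 had 385, 106 and 8.13 FPKM in peel. XTH 2 (Csa1G422480) went the other way, with 49.7, 70.0 and 1282 FPKM in peel, whereas flesh had 36.9, 11.0 and 422.

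Pectin genes had 7 of 69 members at least 4-fold lower (10.1%, or 3 with a pseudocount of 5) and 4 higher (5.80%). The shares over all genes were 2.18% and 3.92%. Pectinesterases remove methyl groups from pectin, and 1 of them (Csa5G162010) had 40.7, 22.5 and 0.385 FPKM in peel, whereas Csa7G343870 had 72.7, 17.8 and 111 and Csa5G139430 had 0.846, 18.7 and 115. A polygalacturonase-inhibitor protein (Csa4G154320) had 914, 67.9 and 5.18 FPKM in peel, whereas flesh had 2366, 613 and 156. Cellulose synthases had 2 of 32 members higher (6.25%) and 2 lower (6.25%, or 0 with a pseudocount of 5), beside the same shares of all genes. The largest difference was that of Csa7G127380, with 3.94, 3.64 and 69.1 FPKM.

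Among the lower genes with the largest differences were proteins with their highest level at day 3. The cortical cell-delineating protein (Csa3G026660), named after a maize root gene, had 2133, 362 and 18.0 FPKM in peel, whereas flesh had 7.43, 2.58 and 0.628. An O-methyltransferase-like protein (Csa3G046230) had 252, 137 and 4.64 FPKM in peel, and a pistil-specific extensin-like protein (Csa6G517400) had 100, 74.0 and 3.41. A PVR3-like protein (Csa3G760500) had 85.8, 47.8 and 2.12 FPKM. Among genes without a product name, Csa3G047810 had the largest negative difference, -5.33 log2 units, with 74.7, 57.1 and 0.451 FPKM, the last from 4 reads.

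Aquaporins, the water channels of membranes, were lower at each step in sum, with 4995 FPKM in peel at day 3, 2584 at day 6 and 1369 at day 9. Of 25 kept, 19 were lower at day 9 than at day 6 and 3 at least 4-fold, with a median of -0.78. Csa6G448110 had 1868, 1008 and 225 FPKM in peel, whereas flesh had 2599 and 946 at days 6 and 9, and Csa7G014450 had 622, 324 and 62.0 in peel. Csa6G520340 was the 1 member at least 4-fold higher, with 15.6, 9.36 and 168 FPKM.

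Sugar genes had 7 of 71 members higher (9.86%) and 3 lower (4.23%) past 4-fold, beside 3.92% and 2.18% of all genes. With a pseudocount of 5 they were 2 and 0. A putative sugar transporter (CsaUNG019690) had 1.38, 2.62 and 50.4 FPKM in peel, and a putative hexose transporter (Csa6G424540) had 6.44, 10.3 and 97.4. The bidirectional transporter N3 (Csa6G343690) had 38.8, 22.3 and 99.5 FPKM in peel, whereas flesh had 90.3, 53.9 and 22.8. Its log2 difference of 2.11 in peel was under the bound after upper-quartile rescaling, and 1.86 after quantile rescaling.

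ACC oxidase makes the hormone ethylene, though many oxidase-like proteins are related enzymes of other substrates. Of 38 ACC synthases and oxidases kept, 30 were higher, 4 at least 4-fold, and the 4 past the bound were oxidases or oxidase-like. The oxidase-like Csa3G135720 had 12.3, 8.41 and 303 FPKM in peel, whereas flesh had 1.98, 0.413 and 5.82, and the nearby Csa3G135740 had 2.53, 1.35 and 30.9 in peel. An ACC oxidase (Csa5G206420) had 8.84, 4.91 and 25.1 FPKM, a log2 difference of 2.14 that fell just under the bound after upper-quartile rescaling and was also under it with a pseudocount of 5. The 4 ACC synthases kept, the enzymes of the step before, lay between -0.03 and 0.63 log2 units.

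Of 62 abscisic acid genes kept, 48 were higher, and 4 were at least 4-fold higher (6.45%, beside 3.92% of all genes) and 0 lower. An abscisic acid stress ripening protein (Csa6G014830) had 0.474, 1.48 and 33.8 FPKM in peel, and receptors annotated PYL4 had 8.92, 6.33 and 50.8 (Csa4G312880) and 9.82, 9.10 and 66.8 (Csa5G217670). Auxin genes had 8 of 142 members higher (5.63%) and 3 lower (2.11%), near the 3.92% and 2.18% of all genes, and a median of -0.23. An auxin-repressed protein (Csa6G518000) had 2080, 232 and 1483 FPKM in peel, whereas flesh had 1036, 136 and 906, so its low point was day 6 in both tissues. Gibberellin-regulated small proteins split, with Csa3G872170 at 1.21, 14.4 and 301 FPKM in peel, whereas flesh had 590 at day 9, and Csa3G829190 at 184, 49.0 and 2.86 in peel. Of 7 cytokinin genes kept, 2 were past 4-fold. The more abundant was annotated as a cytokinin riboside phosphoribohydrolase-like gene (Csa6G141420), with 77.2, 140 and 570 FPKM. The other was a cytokinin oxidase/dehydrogenase (Csa2G000440), with 0, 0.0403 and 3.66 FPKM, from 1 read at day 6 and 62 at day 9. The log2 difference of Csa6G141420 was 2.02, and 1.86 after upper-quartile rescaling. With a pseudocount of 5 neither gene was past the bound.

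Transcription factor families are set beside the 3.92% of all genes at least 4-fold higher and the 2.18% lower. WRKY factors, which act in defence and senescence, had 9 of 54 higher (16.7%) and 0 lower. Their median was 0.75 in peel and 1.01 in flesh, where 11 of 50 members were at least 4-fold higher. WRKY Csa4G012390 had 1.74, 4.70 and 104 FPKM in peel, whereas flesh had 0.487 and 10.1 at days 6 and 9. Ethylene-responsive factors had 9 of 86 higher (10.5%) and 2 lower (2.33%), and in flesh 16 of 79 higher and 0 lower. Their median was 0.41 in peel and 0.65 in flesh. The AP2-like Csa7G431330 had 0.788, 25.8 and 164 FPKM in peel, whereas flesh had at most 1.08. MYB factors had 9 of 100 higher (9%) and 2 lower (2%), and in flesh 10 of 97 higher and 3 lower. Their median was 0.20 in peel and 0.51 in flesh. MYB Csa3G826690 had 3.32, 10.2 and 130 FPKM in peel, while flesh stayed under 1 FPKM. NAC factors had 6 of 50 higher (12%) and 1 lower (2%), and in flesh 9 of 54 higher and 0 lower. Their median was 0.43 in peel and 0.80 in flesh. NAC Csa3G523580 had 2.75, 4.29 and 41.6 FPKM in peel. Factors at least 4-fold higher with a pseudocount of 5 were 3 WRKY, 4 ethylene-responsive, 5 MYB and 3 NAC members. Of 74 homeobox, 18 MADS-box and 10 YABBY and growth-regulating factors kept, 0 passed the bound in peel. The last of these lists are too small to set 0 apart from the shares of all genes.

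The 3 most abundant genes of the day 9 peel, taken by level after the values were seen, were each under 10 FPKM in flesh. An annexin (Csa5G623640), of the calcium-dependent membrane-binding proteins, had 16.3, 1344 and 10050 FPKM in peel, whereas flesh had at most 7.43. Its neighbour on chromosome 5, a repetitive proline-rich cell wall protein (Csa5G623650), had 19.8, 1775 and 7392 FPKM in peel, whereas flesh had at most 7.20. A Pollen Ole e 1 allergen and extensin family protein (Csa1G165730) had 19.8, 905 and 8616 FPKM in peel. The annexin model is short, and its 10095 reads at day 9 were fewer than the 69230 of its neighbour, so the order of the pair differs between FPKM and reads.

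Of the 21168 genes placed on numbered chromosomes, 677 were higher and 379 lower. Of the 677 higher genes, 164 (24.2%) stood directly beside another higher gene, in 72 runs of which the longest had 6 genes. Of the 379 lower genes, 34 (8.97%) stood in 16 runs, with at most 3 genes. The sets differ in size, so their shares in runs have different bases, and neither share was tested. The longest run, Csa4G000820 to Csa4G000870 on chromosome 4 (185145 to 204864), held 5 unknown proteins and an aspartate aminotransferase, at 2.08 to 6.59 log2 units. A run of 5 cinnamate 4-hydroxylases lay on chromosome 2 (5323108 to 5341747), and runs of 3 glutathione S-transferases on chromosomes 1 (3525485 to 3529538) and 3 (8801736 to 8808902). A run on chromosome 1 (6916481 to 6931858) held 4 genes, with cysteine-rich and other receptor-like kinases. Of 13 cysteine-rich receptor-like kinases kept, a family counted after the values were seen, 12 were higher at day 9 and 6 at least 4-fold. Neighbours of like sequence can share reads, and coordinates are those of the deposited table.

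The same step in flesh, which shares no library with peel, had 584 of 17067 genes at least 4-fold higher (3.42%) and 178 lower (1.04%), together 4.46%. Of the peel's higher genes, 98 were also at least 4-fold higher in flesh, 14.3% of the peel set and 16.8% of the flesh set. Of its lower genes, 34 were also at least 4-fold lower in flesh, 8.95% of the peel set and 19.1% of the flesh set. Of the 380 lower genes, 341 were lower in flesh too by any amount, with a median of -1.20 there. Among the higher genes 461 of 683 were higher in flesh and 172 lower, with a median of 0.45. Of the 683, 213 were under 1 FPKM in flesh at both days. Of the 16376 genes within 4-fold in peel, 7969 were higher in flesh and 8240 lower, with a median of -0.003. The differences between the tissues were not tested, since each tissue has 1 library a day.

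**Figure D5:**
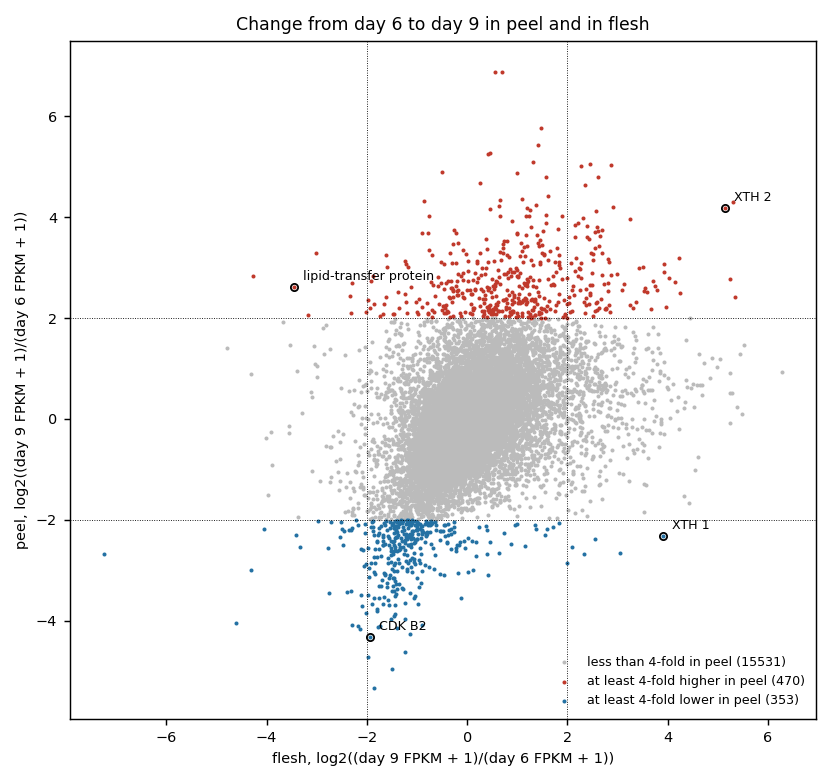
Log2 difference between day 9 and day 6 in flesh (horizontal axis) and in peel (vertical axis) for the 16354 genes kept in both tissues, with dotted lines at 4-fold. The 353 genes in blue, lower in peel, lie mostly left of 0, and the 470 genes in red spread to both sides of it, more of them to the right.

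Across these 16354 genes Pearson's r between the changes of peel and flesh was 0.44, a description over genes that share libraries and are not independent. The peel change exceeded the flesh change by at least 2 log2 units in 430 genes and fell short of it by as much in 516. In 13 genes the tissues passed 4-fold in opposite directions, but 7 of them had at most 3 reads in either peel library, and 5 of the 13 had at least 30 reads in one. For 9 of the 13 the table gives no product name. XTH 1 (Csa6G423390), chosen after its values were seen, was the named gene lower in peel, with 22.7 and 3.74 FPKM in peel, whereas flesh had 3.58 and 67.5 at days 6 and 9. Its peel difference was -1.66 log2 units with a pseudocount of 5, a setting that left 1 gene with opposite calls.

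The step before, from day 3 to day 6 in peel, shares the day 6 library with this one, so its values are set beside without comparison of the lists. It had 131 of 17308 genes at least 4-fold higher (0.757%) and 176 lower (1.02%), together 1.77%. Over the 683 genes higher at day 9, the median log2 difference from day 3 to day 6 was 0.00, and over the 380 lower genes it was -0.39.

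One fit gave a test, of the change from day 6 to day 9 common to peel and flesh, with tissue and day as factors over the 6 libraries and 2 residual degrees of freedom. limma called 0 of 17265 genes (0%) at an adjusted p under 0.05, two-sided, with 3577 at an unadjusted p under 0.05 and a lowest adjusted p of 0.139. edgeR on the recovered reads called 0 of 17665 (0%), with 3729 unadjusted, and DESeq2 called 2004 of 16892 (11.9%). The fit does not test the peel step, and a change that differs between the tissues counts as error in it.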

How the data were processed

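Per the labels' protocols, libraries were made from mRNA after ribosomal RNA removal, each from 3 mixed fruits. Per the submitters' processing notes, TopHat and Cufflinks 2.1.1 were used. The build, annotation and strand setting were not given in the sources used here. Per the file headers, the authors deposited FPKM per gene, and columns called counts. The deposited count columns were not whole numbers and were treated as a scaled signal: dividing each by its step gave whole reads (within 0.05) for 99.8% to 100% of values. These reads gave depth, intervals and the edgeR and DESeq2 alternatives, of which edgeR called 0 genes.

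Genes with at least 1 FPKM in either library were compared as log2(FPKM + 1), and 4-fold was the bound. No peel comparison has a replicate, so sizes are described without tests. Where a library has 0 reads, the fold is given against 3 reads, with the lower limit of its counting interval. The fit over both tissues used limma 3.58.1 with a trend, edgeR 4.0.16 (quasi-likelihood) and DESeq2 1.42.0 in R 4.3.3, with Benjamini-Hochberg adjustment. limma and edgeR were also run on simulated data. The outcome of that run is not given here, so it lends no weight to the numbers called.

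The members and the 46 gene lists, matched on product names, were chosen with earlier results of these data known; in 4 lists names matched by mistake were taken out after seeing the matches. Genes named are the 12 largest differences each way with a product name and at least 10 FPKM, the 3 largest without one, and up to 3 members past 4-fold of each list with the highest FPKM, or, for lists with none past it, the 2 most abundant members; others are named as chosen later. Identifiers matched 0 entries of the reference table at hand, so no sequences are shown. Alternatives were other pseudocounts, filters and scalings, the count columns, and, for the fit, each library left out; added after seeing the data were a minimum of 30 reads, the removal of genes sharing a locus, and the count tools.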

Additional observations from a re-analysis of the deposited data

Results flagged for a closer look

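A non-specific lipid-transfer protein (Csa4G333620, chromosome 4, 13505364 to 13506877) differed between day 6 and day 9 in opposite directions in peel and flesh. It had 74.8, 216 and 1330 FPKM in peel at days 3, 6 and 9, and 35.1, 28.3 and 1.66 FPKM in flesh. The log2 difference between day 9 and day 6 was 2.62 in peel and -3.46 in flesh, so the peel change exceeded the flesh change by 6.08. With 1 library per tissue and day, this difference was not tested.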

How the results depend on the processing

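Of the numbers of genes past 4-fold, those that moved by over 1.5 times did so with the pseudocount and the count columns. In peel from day 6 to day 9, 683 higher and 380 lower genes became 1070 and 736 with a pseudocount of 0.1, and 322 and 96 with 5; the deposited count columns gave 706 lower. In flesh, 584 and 178 became 912 and 514 with a pseudocount of 0.1, 293 and 37 with 5, and 444 lower with the count columns. In peel from day 3 to day 6, 131 and 176 became 297 and 439, 40 and 64, and 235 and 369. In the fit, DESeq2 called 2004 genes where limma called 0. The other 56 alternative values stayed within 1.5 times. No named gene changed direction past the bound; 46 values of named genes dropped under 4-fold and 3 passed it. In the fit over both tissues limma called 0 genes under each alternative, and with each library left out it called 0 to 0 genes (unadjusted p under 0.05 in 1398 to 4701); edgeR called 0. The causes were not tested. No paired analysis was possible because each tissue and day has 1 library, so no replicate numbers can pair; the fit over both tissues sets day 9 against day 6 within each tissue through its tissue term. Depth limits the 72 higher and 32 lower genes with under 30 reads, and 1 library a day leaves the spread between fruits unknown.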

Other observations

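Of 432 receptor-like kinases kept, a family counted after its values were seen that holds the cysteine-rich ones, 50 were at least 4-fold higher (11.6%) and 8 lower (1.85%), beside 3.92% and 2.18% of all genes. With a pseudocount of 5 they were 27 and 0. The median log2 difference was 0.40 in peel and 0.22 in flesh. A calcium-dependent protein kinase (Csa1G690150), chosen after its values were seen, had 5.62 FPKM in peel at day 6 and 27.5 at day 9, and 16.8 and 2.59 in flesh, and its peel difference of 2.11 log2 units was 1.96 after upper-quartile rescaling. CASP-like proteins, related to those that guide wall deposition in the root endodermis, had 3 of 25 kept members at least 4-fold higher (12%) and 1 lower (4%). CASP-like protein 5 (Csa3G151500) had 2.71, 36.8 and 283 FPKM in peel, while flesh stayed under 1 FPKM.

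Germin-like protein 6 (Csa1G596420) had 440, 443 and 88.0 FPKM in peel, while 10 of 12 germin-like genes kept were higher at day 9. A stay-green protein (Csa5G156180), which acts in chlorophyll breakdown, had 52.8, 20.8 and 91.7 FPKM in peel. Its log2 difference of 2.09 was 1.94 after upper-quartile rescaling. Heat shock proteins and chaperones had 1 of 175 members at least 4-fold higher and 1 lower (0.571% each), beside 3.92% and 2.18% of all genes.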
